A study of Homo sapiens with 9 samples.

Results

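The epithelial-mesenchymal transition (EMT) genes described here are the transcription factors Snai1, Snai2, Twist1, Zeb1 and Zeb2, the cadherins Cdh1 and Cdh2, and the marker genes Vim, Epcam and Fn1. They were chosen by symbol. Of the 10 symbols, 9 had a row among the 17369 genes of the expression table, and Zeb2 was not analysed here. The TBP3743 line, a mouse model of anaplastic thyroid cancer, came from B6129SF1 mice that carried a thyroid-specific oncogenic Braf mutation and a thyroid-specific deletion of Trp53, so the tumor cells of every group share both lesions. The adapted TBP3743 cells were recovered from round 3 of serial subcutaneous passage in C57BL/6 mice. RNA was sequenced from 9 orthotopic tumors, 3 per group. Groups are named by cells and host: original/B6129SF1 tumors grew from original cells in B6129SF1 mice, adapted/B6129SF1 tumors from adapted cells in the same strain, and adapted/C57BL/6 tumors from adapted cells in C57BL/6 mice. The hosts were female and 6 weeks old and 100000 cells were injected into the thyroid. Tumors were harvested on day 14, a time taken from the legends to the sequencing data, whereas the methods state an earlier day, for tumor size alone. No group carried original cells in C57BL/6 mice, so the host strain was compared with adapted cells alone.

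EMT is the program by which epithelial cells loosen their junctions and take on the shape and motility of mesenchymal cells. Transcription factors of the Snail, Twist and Zeb families repress the E-cadherin gene Cdh1 and other epithelial genes, while N-cadherin, vimentin and fibronectin, encoded by Cdh2, Vim and Fn1, mark the mesenchymal state. Anaplastic thyroid cancer has lost most follicular differentiation and is known for its spindle-shaped, sarcoma-like cells. The samples were labelled as cancer epithelial cells, so the level of each marker in every tumor was examined first, followed by the differences between the original and the adapted tumors and between the host strains.

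The values are FPKM, fragment numbers corrected for transcript length and for the scale of each tumor. Comparison between genes and between tumors is approximate, since the scaling between tumors is not given in the sources used here. The FPKM of a tumor summed to between 457983 and 540514. These sums are not depths, and the absolute depth is unknown. The depth relative to original/B6129SF1 replicate 1, read from the smallest steps of weakly expressed genes, ranged from 0.96 to 1.35 across the other tumors. Skeletal muscle markers (15 of 15 genes with a row) took 7.77% of the summed FPKM of adapted/B6129SF1 replicate 3 and 1.46% of that of adapted/C57BL/6 replicate 1, while the other 7 tumors had 0.17% or less. Differences were tested with limma on log2(FPKM + 1) over the 10263 genes that reached 1 FPKM in 3 or more tumors, in a single model of the 9 tumors, with Benjamini-Hochberg adjustment over all genes tested. All 9 genes passed this filter. A gene passed the test when its adjusted p was under 0.05, and a differentially expressed gene (DEG) also had an absolute log2 fold change above 1. The scale of log2(FPKM + 1) understates changes of weakly expressed genes.

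Vim, Fn1 and Cdh2 were above Cdh1 and Epcam in every tumor. Vim, the gene of the intermediate filament protein vimentin, ranked between 4 and 17 among the 17369 genes in the individual tumors, and Fn1, which encodes the matrix glycoprotein fibronectin, ranked between 55 and 159. The N-cadherin gene Cdh2 averaged 58.9 FPKM over the 9 tumors, the E-cadherin gene Cdh1 2.61 FPKM and Epcam, which encodes an epithelial adhesion molecule, 1.13 FPKM. Cdh2 exceeded Cdh1 in every tumor, by between 12.9 and 43.1 times. The transcription factor genes lay between these extremes, at an average of 43.6 FPKM for Zeb1, 37.2 for Twist1, 28.2 for Snai1 and 13.1 for Snai2. In this order Zeb1, Twist1 and Snai1 overlapped across tumors, whereas Snai2 was below Snai1 in each of the 9 tumors, by between 1.51 and 2.96 times.

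Other epithelial genes were as low, with the exception of a keratin pair. Of 11 regulators of the epithelial state, 9 stayed under 1 FPKM in every tumor, including the grainyhead-like factor Grhl2 and the epithelial splicing regulators Esrp1 and Esrp2, and Klf5 alone was tested. Of 28 epithelial junction and surface genes, 13 stayed under 1 FPKM in every tumor and 10 were tested. The highest of these was Tjp1, which encodes the scaffold protein ZO-1 and is also expressed outside epithelia, at a mean of 28.5 FPKM. In contrast, the simple keratin genes Krt8 and Krt18 averaged 315 and 215 FPKM, and the other simple keratin genes listed, Krt7 and Krt19, averaged 0.94 and 1.1 FPKM. Among 8 thyroid follicular markers, 4 stayed under 1 FPKM in every tumor and a single gene reached 10 FPKM in every tumor. This was Nkx2-1, a thyroid and lung lineage transcription factor, at 34.4 FPKM. The thyroglobulin gene Tg ranged from 0.0153 to 31 FPKM.

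**Figure D1:**
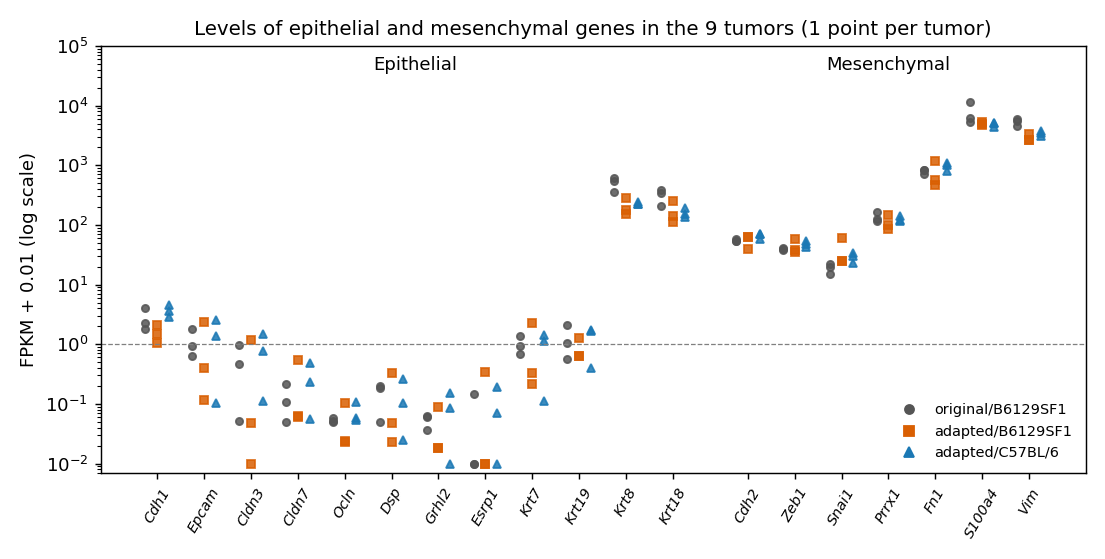
FPKM of 12 epithelial and 7 mesenchymal genes, chosen for display after their values were seen, with 0.01 added so that values of 0 can be drawn on the log axis; each point is a tumor, and the shape and color give its group. Apart from Krt8 and Krt18 the epithelial genes lie near or below the dashed line at 1 FPKM in the 3 groups, whereas Cdh2, Zeb1, Snai1, Prrx1, Fn1, S100a4 and Vim lie at 15.3 FPKM or more in every tumor.

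To examine whether passage through C57BL/6 mice changed these genes, adapted/B6129SF1 tumors were compared with original/B6129SF1 tumors in the same host. Of the 9 genes, 1 passed the test, against 8.28% of all genes tested (3.92% passed as lower, 4.37% as higher), and none was a DEG, against 3.22%. The gene that passed was Vim, which fell, while 3 genes, Vim, Snai1 and Twist1, had an unadjusted p under 0.05, against 26.5% of all genes tested. The groups did not overlap for 2 of the 9 genes, Vim and Snai1, a pattern found in 29.6% of all genes tested. The median log2 fold change was -0.22 over the 9 genes and -0.03 over all genes tested.

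Vim was 4625, 6058 and 5489 FPKM in original/B6129SF1 replicates 1, 2 and 3. It was 2664, 3350 and 2611 FPKM in the adapted/B6129SF1 tumors, and 3048, 3704 and 3455 FPKM in the adapted/C57BL/6 tumors. Every adapted tumor was below every original/B6129SF1 tumor. Group means were 5391 ± 721, 2875 ± 413 and 3402 ± 331 FPKM (SD, n = 3 each), and the adapted/B6129SF1 mean was 0.53 of the original/B6129SF1 mean. The log2 fold change was -0.91 (SE, the standard error, 0.18, limma adjusted p = 0.02) in the adapted/B6129SF1 group. In the adapted/C57BL/6 group it was -0.66 (SE 0.18, limma adjusted p = 0.0583), which did not pass the threshold. It passed with muscle genes removed (limma adjusted p = 0.037), with the replicate block (adjusted p = 0.0409) and without the mean-variance trend (adjusted p = 0.0335). Over both adapted groups Vim fell by 0.78 on the log2 scale (SE 0.15, limma adjusted p = 0.0144), lower in 6 of 6 adapted tumors. The call in the adapted/B6129SF1 group was lost without original/B6129SF1 replicate 3 (limma adjusted p = 0.0753), without adapted/B6129SF1 replicate 1 (adjusted p = 0.0537) or replicate 3 (adjusted p = 0.0626), without both muscle-rich tumors (adjusted p = 0.0663), and without a filter on low values (adjusted p = 0.144), with log2 fold changes from -1.02 to -0.82 over all settings tried. The call over both adapted groups was lost without original/B6129SF1 replicate 3 (limma adjusted p = 0.0645) and without the filter (adjusted p = 0.125).

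Vimentin is also made by fibroblasts, endothelial cells and leukocytes. In bulk tumors, fewer cells of a type and less RNA per cell cannot be told apart. The summed FPKM of 7 of 8 leukocyte and macrophage markers with a row, of which none was at 0 in any tumor, ranged from 535 to 665 in the original/B6129SF1 group, from 886 to 928 in the adapted/B6129SF1 group and from 498 to 895 in the adapted/C57BL/6 group. For 9 of 9 fibroblast markers, none at 0, the sums were 981 to 1258, 1090 to 1594 and 1192 to 1453. For 8 of 8 endothelial markers, none at 0, they were 75.2 to 96.9, 76.3 to 115 and 89.2 to 110. The highest sum of each adapted group was above the highest of the original/B6129SF1 group for the 3 lists. The ranges nevertheless overlapped with that group, except for the higher leukocyte and macrophage sums of the adapted/B6129SF1 group. The lowest leukocyte and macrophage sum of the 9 tumors, 498, was in the adapted/C57BL/6 group. The part of these cells in the Vim level was not tested. The genes whose log2 values followed Vim most closely over the 9 tumors were Wbp2, Olfml2b and Ptprn2, each with a Pearson r of 0.99.

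**Figure D2:**
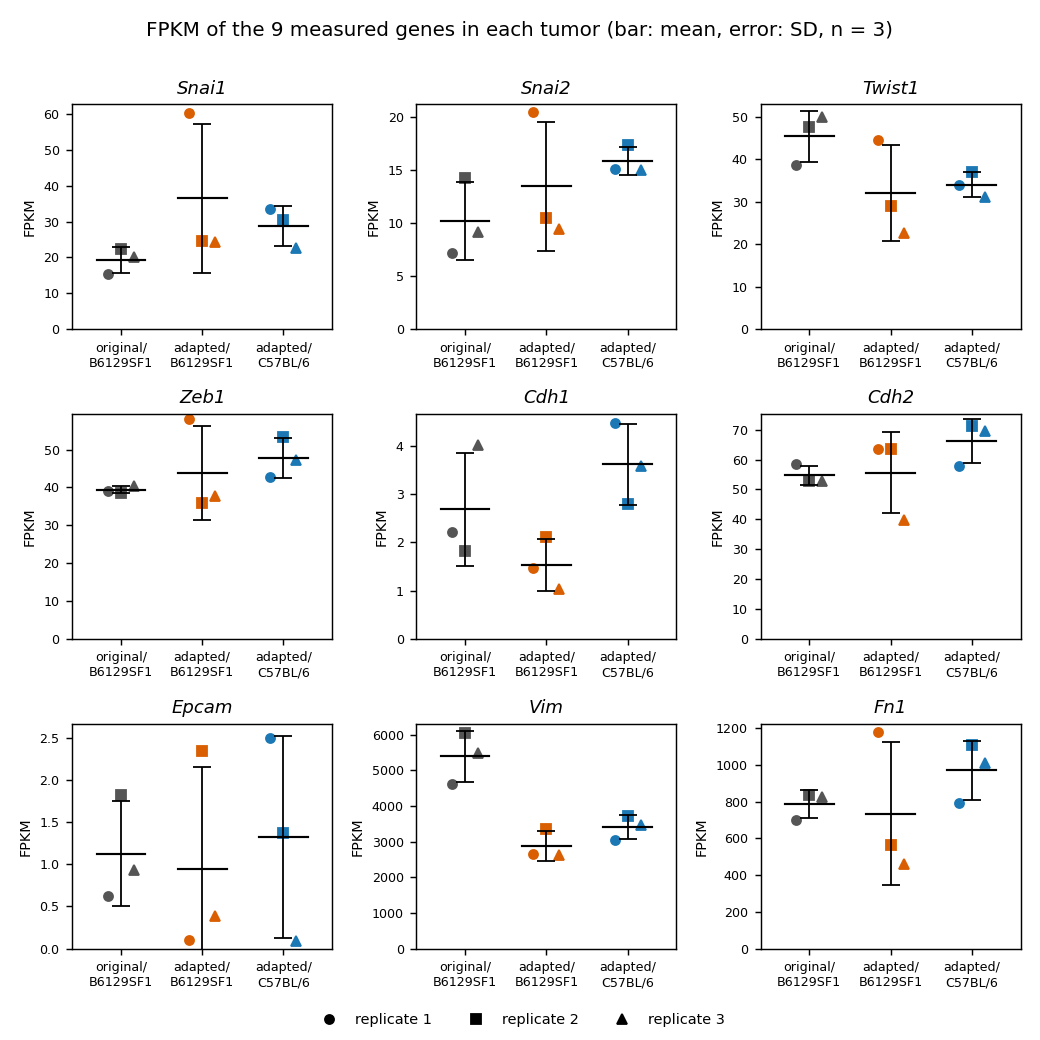
FPKM (vertical axis, from 0) of each of the 9 genes in the original/B6129SF1, adapted/B6129SF1 and adapted/C57BL/6 tumors; marker shapes give the replicate number, horizontal bars the mean and error bars the SD of 3 tumors, cut off at 0 for Epcam. The 6 adapted tumors lie between 2611 and 3704 FPKM for Vim, below the 3 original/B6129SF1 tumors, and adapted/B6129SF1 replicate 1 is the highest tumor for Snai1, Snai2, Zeb1 and Fn1.

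The Snail genes encode zinc finger repressors of E-cadherin, and Snai1 was higher in every adapted tumor without passing the test. It was 15.3, 22.3 and 20 FPKM in the original/B6129SF1 tumors, 60.6, 24.6 and 24.4 FPKM in the adapted/B6129SF1 tumors, and 33.5, 30.6 and 22.7 FPKM in the adapted/C57BL/6 tumors. The lowest adapted tumor thus stood just above the highest original/B6129SF1 tumor, and adapted/B6129SF1 replicate 1 stood apart from the others. The log2 fold change was 0.77 (SE 0.33, limma adjusted p = 0.178) in the adapted/B6129SF1 group and 0.56 (SE 0.33, adjusted p = 0.339) in the adapted/C57BL/6 group. Without adapted/B6129SF1 replicate 1 the value in the adapted/B6129SF1 group was 0.35. Snai2 was 7.12, 14.2 and 9.14 FPKM in the original/B6129SF1 tumors, 20.5, 10.4 and 9.41 in the adapted/B6129SF1 tumors and 15.1, 17.3 and 15 in the adapted/C57BL/6 tumors. The 3 adapted/C57BL/6 tumors were close together and above the original/B6129SF1 tumors, whereas the adapted/B6129SF1 tumors overlapped with them. Its log2 fold changes were 0.34 and 0.64 (limma adjusted p = 0.492 and 0.231), and the former was 0.016 without adapted/B6129SF1 replicate 1. In the pattern over tumors Snai2 was most like Ndfip1, Pdgfra and Luc7l2, each with a Pearson r of 0.96. Pdgfra, a platelet-derived growth factor receptor gene, is also one of the fibroblast markers summed above.

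Twist1, a basic helix-loop-helix factor gene, had the opposite direction. It was 38.6, 47.7 and 50 FPKM in the original/B6129SF1 tumors, 44.6, 28.9 and 22.7 in the adapted/B6129SF1 tumors and 34, 36.9 and 31.1 in the adapted/C57BL/6 tumors. Of the adapted tumors, 5 were below every original/B6129SF1 tumor and adapted/B6129SF1 replicate 1 was within their range. The log2 fold change was -0.54 (SE 0.22, limma adjusted p = 0.16) in the adapted/B6129SF1 group and -0.40 (SE 0.22, adjusted p = 0.299) in the adapted/C57BL/6 group. Without adapted/B6129SF1 replicate 1 Twist1 passed the test in the adapted/B6129SF1 group (log2 fold change -0.79, limma adjusted p = 0.0262), in a fit in which Vim did not pass. Zeb1, which encodes a zinc finger homeobox repressor, was 39.1, 38.6 and 40.4 FPKM in the original/B6129SF1 tumors, 58, 35.7 and 37.6 in the adapted/B6129SF1 tumors and 42.7, 53.3 and 47.1 in the adapted/C57BL/6 tumors. Its original/B6129SF1 tumors had the smallest spread of the 9 genes, with an SD of 2.34% of the mean. Its log2 fold changes were 0.12 and 0.26 (SE 0.17 each, limma adjusted p = 0.7 and 0.393).

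The ratio of Snai1 to Twist1 within a tumor does not depend on the scaling of that tumor. It was 0.396, 0.468 and 0.4 in the original/B6129SF1 tumors, 1.36, 0.85 and 1.07 in the adapted/B6129SF1 tumors and 0.984, 0.829 and 0.73 in the adapted/C57BL/6 tumors. The groups with adapted cells did not overlap with the original/B6129SF1 group. The ratio of Vim to Fn1 was 6.6, 7.25 and 6.65 in the original/B6129SF1 tumors, 2.25, 5.93 and 5.67 in the adapted/B6129SF1 tumors and 3.84, 3.34 and 3.41 in the adapted/C57BL/6 tumors, below every original/B6129SF1 tumor. Of 6 such ratios computed, these were the ones whose adapted tumors did not overlap with the original/B6129SF1 tumors. Each holds a gene, Snai1 or Vim, whose own values already did not overlap, as for 19.2% of all genes tested. The share of such ratios over all pairs of genes was not computed. The ratios were chosen after the values of the genes were seen and are given without a test.

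**Figure D3:**
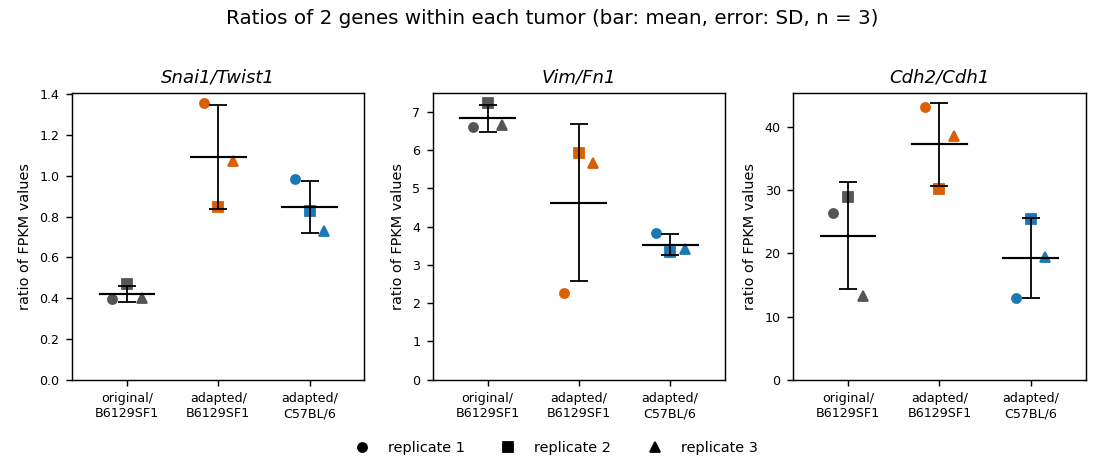
Ratios of the FPKM values of 2 genes within each tumor (vertical axes, from 0) for Snai1/Twist1, Vim/Fn1 and Cdh2/Cdh1, with the mean (bar) and SD (error bar) of 3 tumors per group. Snai1/Twist1 lies at or under 0.468 in the original/B6129SF1 tumors and at or above 0.73 in the adapted tumors, while Cdh2/Cdh1 overlaps between original/B6129SF1 and adapted/C57BL/6 tumors.

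Neither cadherin gene passed the test against the original/B6129SF1 group. Cdh2 was 58.5, 52.7 and 52.9 FPKM in the original/B6129SF1 tumors, 63.4, 63.6 and 39.9 in the adapted/B6129SF1 tumors and 57.8, 71.3 and 69.5 in the adapted/C57BL/6 tumors. The lowest value was that of adapted/B6129SF1 replicate 3, the tumor with the most skeletal muscle RNA. The log2 fold changes of Cdh2 were -0.01 and 0.27 (SE 0.18 each, limma adjusted p = 0.986 and 0.405), and without that tumor the former was 0.21. Cdh1 was 2.22, 1.82 and 4.01 FPKM in the original/B6129SF1 tumors, 1.47, 2.11 and 1.03 in the adapted/B6129SF1 tumors and 4.48, 2.8 and 3.58 in the adapted/C57BL/6 tumors. Its log2 fold changes were -0.52 and 0.36 (SE 0.25 each, limma adjusted p = 0.237 and 0.438). The ratio of Cdh2 to Cdh1 was between 13.2 and 28.9 in the original/B6129SF1 group, between 30.2 and 43.1 in the adapted/B6129SF1 group and between 12.9 and 25.5 in the adapted/C57BL/6 group.

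Epcam was 0.618, 1.82 and 0.937 FPKM in the original/B6129SF1 tumors, 0.106, 2.34 and 0.391 in the adapted/B6129SF1 tumors and 2.49, 1.37 and 0.0949 in the adapted/C57BL/6 tumors. It varied by 26.3 times between tumors, more than any other of the 9 genes, and each group held a tumor with more than 1 FPKM. Its log2 fold changes were -0.26 and 0.01 (SE 0.51 each, limma adjusted p = 0.776 and 0.992), less than the spread between tumors. The genes most like Epcam over the tumors were Poll, Krt7 and Idh2, with Pearson r of 0.97, 0.89 and 0.87. Fn1 was 700.3, 836 and 824.8 FPKM in the original/B6129SF1 tumors, 1181, 564.6 and 460.4 in the adapted/B6129SF1 tumors and 794.2, 1109 and 1013 in the adapted/C57BL/6 tumors. The adapted/B6129SF1 tumors held both the highest and the lowest values of the series. The log2 fold changes of Fn1 were -0.22 and 0.29 (SE 0.31 each, limma adjusted p = 0.688 and 0.616). Over the tumors Fn1 was most like Igf1r, Vegfa and Sema3f, with Pearson r between 0.95 and 0.96.

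In the adapted/C57BL/6 group as a whole, none of the 9 genes passed the test against the original/B6129SF1 group, where 6.75% of all genes tested did (3.09% as DEGs), and 1 gene, Vim, had an unadjusted p under 0.05, against 24.4%. The groups did not overlap for 5 of the 9 genes, against 32.8% of all genes tested. Snai1, Snai2 and Zeb1 were higher in each adapted/C57BL/6 tumor, as were 14.9% of all genes tested, and Vim and Twist1 were lower, as were 17.9%. The median log2 fold change of the 9 genes was 0.27, against -0.03 over all genes tested. When both adapted groups were set against the original/B6129SF1 group, Vim alone of the 9 genes passed, against 11.9% of all genes tested (5.84% as lower, 3.39% as DEGs). The 6 adapted tumors did not overlap with the original/B6129SF1 tumors for Vim and Snai1, against 19.2%, and 3 genes had an unadjusted p under 0.05, against 29.4%. The comparisons with original/B6129SF1 share the same 3 control tumors.

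The host strains were compared with the adapted cells in both. None of the 9 genes passed the test between the adapted/C57BL/6 and adapted/B6129SF1 groups by limma, in which 0.0292% of all genes tested passed, and 1 gene had an unadjusted p under 0.05, against 6.27%. This gene was Cdh1, with a log2 fold change of 0.87 (SE 0.25, unadjusted p = 0.00794, limma adjusted p = 0.602). Cdh1 averaged 1.54 ± 0.539 FPKM in the adapted/B6129SF1 group and 3.62 ± 0.843 FPKM in the adapted/C57BL/6 group (SD, n = 3 each), and was the single gene of the 9 whose groups did not overlap, a pattern found in 11.7% of all genes tested. The original/B6129SF1 tumors, at 1.82 to 4.01 FPKM, overlapped with both. For the remaining 8 genes the log2 fold change ranged from -0.21 for Snai1 to 0.51 for Fn1, with adjusted p of 0.864 or more by limma.

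**Figure D4:**
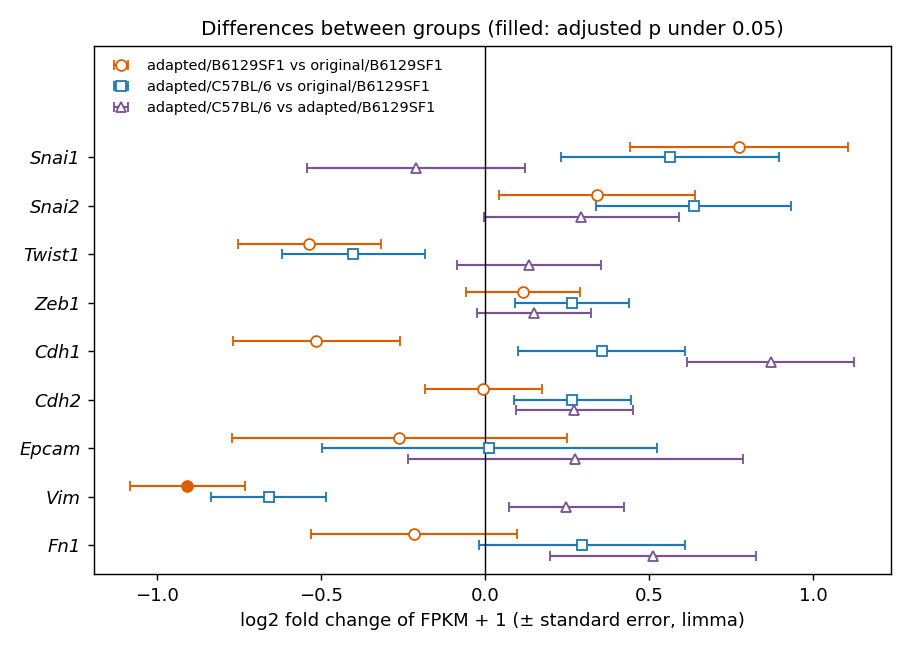
Log2 fold changes of FPKM + 1 (horizontal axis) with their standard errors from limma for the 9 genes in 3 comparisons; filled symbols have an adjusted p under 0.05. Vim between adapted/B6129SF1 and original/B6129SF1 tumors, at -0.91, is the single filled symbol, and the estimates of Cdh1 against original/B6129SF1 lie on opposite sides of 0 in the 2 hosts.

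Related genes were then grouped by role. Of 13 other factors linked to EMT, 11 were tested, and Twist2, the paralog of Twist1, fell by 1.28 (log2) in the adapted/B6129SF1 group (SE 0.22, limma adjusted p = 0.0124). Twist2 was 38.1 ± 2.47 FPKM in the original/B6129SF1 group, 15.5 ± 4.65 in the adapted/B6129SF1 group and 21.3 ± 4.6 in the adapted/C57BL/6 group (SD, n = 3 each), and its log2 fold change in the adapted/C57BL/6 group was -0.83 (limma adjusted p = 0.0542). Both Twist genes were thus at lower means in the adapted groups, and reads of these paralogs could be shared where their sequences are alike. In the adapted/C57BL/6 group, 2 genes of the list passed, Id1 and Id2 (3.99% of all genes tested passed as higher). They rose by 0.99 and 0.73 (limma adjusted p = 0.0459 and 0.0499), and these calls were lost in 9 and 12 of the 18 alternative settings. Their products lack a DNA-binding region and inhibit basic helix-loop-helix factors. The homeobox gene Prrx1 was between 84.3 and 167 FPKM, higher than any of the Snail, Twist and Zeb1 values, with log2 fold changes of -0.32 and -0.09 (limma adjusted p = 0.374 and 0.844). The median log2 fold change of the 11 genes was 0.09 in the adapted/B6129SF1 group and -0.04 in the adapted/C57BL/6 group. Of 14 tested genes for corepressors and turnover of Snail and Zeb proteins, none passed in any comparison by limma, 3 and 4 of them having an unadjusted p under 0.05 in the respective adapted groups (26.5% and 24.4% of all genes tested), with medians of -0.12 and -0.08.

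Of 20 other cadherin genes, 15 stayed under 1 FPKM in every tumor and 5 were tested. Cdh13, which encodes a cadherin anchored by a lipid and lacking a cytoplasmic tail, was the highest of them. It was 125 ± 45.6 FPKM in the original/B6129SF1 group, 57.2 ± 18.9 in the adapted/B6129SF1 group and 52 ± 1.22 in the adapted/C57BL/6 group (SD, n = 3 each). It fell by 1.13 on the log2 scale over both adapted groups (limma adjusted p = 0.0257), where adapted/B6129SF1 replicate 1, at 77.2 FPKM, overlapped with the lowest original/B6129SF1 tumor at 76.6 FPKM. The call was lost in 6 of 17 alternative settings. In the separate groups it did not pass (limma adjusted p = 0.0592 and 0.052). Cdh5, the vascular cadherin gene, ranged from 12.7 to 22.1 FPKM. The catenins link cadherins to actin, and none of the 5 tested passed in any comparison by limma, with 0 and 1 at an unadjusted p under 0.05 in the adapted groups, against 26.5% and 24.4% of all genes tested. The beta-catenin gene Ctnnb1 was between 169 and 204 FPKM, with log2 fold changes of -0.01 and -0.11 (limma adjusted p = 0.965 and 0.517), and Ctnna1, for alpha-catenin, was between 171 and 268 FPKM.

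Some of the epithelial genes that were expressed fell in the adapted tumors. Of the 10 junction and surface genes tested, 3 fell in each adapted group (3.92% and 2.77% of all genes tested passed as lower) and none rose, with list medians of -0.24 and 0.02. They included the claudin gene Cldn1 and the desmosomal plakophilin gene Pkp2. Cldn1 fell by 1.62 and 1.35 in log2 units (limma adjusted p = 0.0136 and 0.028), from 6.37 ± 1.08 FPKM to 1.48 ± 0.889 and 1.93 ± 0.751 (SD, n = 3 each). Pkp2 fell by 0.64 and 0.82 (limma adjusted p = 0.045 and 0.0221). The Pkp2 calls were lost in 13 and 5 of 18 alternative settings, and those of Cldn1 in 1 and 6. Of the 4 simple keratin genes, Krt8 passed and fell in both groups, by 1.32 and 1.12 (limma adjusted p = 0.0189 and 0.0346). Krt8 was 510.1 ± 131 FPKM in the original/B6129SF1 group, 205 ± 68.8 in the adapted/B6129SF1 group and 228 ± 11.1 in the adapted/C57BL/6 group (SD, n = 3 each). Its calls were lost in 5 and 9 of 18 alternative settings, with log2 fold changes from -1.58 to -0.97 throughout. Krt18, the partner of Krt8, had log2 fold changes of -0.94 and -0.93 (limma adjusted p = 0.116 and 0.131). Krt8, Krt18 and Vim were thus at lower means in both adapted groups. None of 6 other intermediate filament genes tested passed in any comparison by limma. Lmna, the highest of them and the single one with an unadjusted p under 0.05 in each adapted group, had log2 fold changes of -0.25 and -0.31 (limma adjusted p = 0.131 and 0.0834).

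Most mesenchymal effector genes did not pass the test. Of 17 tested, 15 did not pass in either adapted group, 1 rose (4.37% and 3.99% of all genes tested passed as higher) and 1 fell (3.92% and 2.77% as lower), with list medians of 0.01 and -0.28. Acta2, the smooth muscle actin gene, rose by 1.84 and 1.85 in log2 units (limma adjusted p = 0.0229 and 0.0242), from 11 ± 4.13 FPKM to 45.1 ± 27.2 and 41.1 ± 6.6 (SD, n = 3 each). In adapted/B6129SF1 replicate 3, the muscle-rich tumor, it was 76.5 FPKM, and without this tumor its log2 fold change in the adapted/B6129SF1 group was 1.39. Mmp2, a matrix metalloproteinase gene, fell by 1.83 and 2.34 (adjusted p = 0.0243 and 0.00949), from 82.6 ± 10.8 FPKM to 25 ± 15.3 and 16.1 ± 6.23 (SD, n = 3 each). The adapted/B6129SF1 call of Mmp2 was lost in 6 of 18 alternative settings, and the calls of Acta2 in 3 and 5. S100a4 was the highest gene of the list, at 4391 to 11608 FPKM, and did not pass (limma adjusted p = 0.246 and 0.245). None of 7 fibronectin receptor genes tested passed in any comparison by limma, with 3 and 0 at an unadjusted p under 0.05 in the adapted groups, against 26.5% and 24.4% of all genes tested. Among the fibroblast markers, Fap, a surface protease gene, rose by 1.21 and 0.89 (limma adjusted p = 0.0161 and 0.0479), the latter call being lost in 12 of 18 alternative settings. Thy1 rose by 1.54 in the adapted/C57BL/6 group (limma adjusted p = 0.00527), and the cells that expressed it were not identified. Col3a1 and the other 6 markers did not pass in either group. Log2 fold changes in the adapted/C57BL/6 group were positive for 6 of the 9 markers. They were -1.29 for Lum, -0.63 for Dcn and -0.30 for Col3a1. Of the remaining lists, none of 8 endothelial, 15 skeletal muscle and 2 thyroid follicular genes tested passed in any comparison by limma, none having an unadjusted p under 0.05. None of 7 leukocyte and macrophage genes passed by limma, and 4 and 2 had an unadjusted p under 0.05 in the adapted groups, against 26.5% and 24.4% of all genes tested. Klf5, the tested regulator of the epithelial state, had log2 fold changes of 0.55 and 0.58 (limma adjusted p = 0.253 and 0.25).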

How the data were processed

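RNA from 9 tumors was measured, and tumors were grouped by their titles. The labels give human as the organism, whereas the cells, hosts and gene symbols are murine. Per the labels and the study's methods, the authors aligned reads to mm10 with HISAT2 and deposited FPKM values from Cuffnorm, 1 column per tumor. The gene annotation, the scaling between tumors and any filter are not given in the sources used here. FPKM values are not counts, so limma 3.58.1 in R 4.3.3 (lmFit, eBayes with a mean-variance trend) was applied to log2(FPKM + 1) for genes that reached 1 FPKM in 3 or more tumors, two-sided. In data simulated for adapted/B6129SF1 against original/B6129SF1 over 10263 genes, 200 genes were changed by 2 in log2. They were drawn from more strongly expressed genes, a range that leaves out Cdh1 and Epcam. Of these 200 genes, 190 were called in the right direction, with 10 unchanged genes called. When none changed, 0 genes were called. Changes as small as those of the 9 genes, the largest being -0.91 for Vim, were not simulated. In any pair of tumors at most 0.0487% of genes tested had the same value. The number of tumors limits the precision.

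The genes and the 16 lists were chosen with earlier results of these data known. Named list genes were drawn from the 3 with the largest change among those that passed and the gene with the highest mean. Not every gene that met these rules is named. Genes added after their values were seen were Krt7, Krt18, Krt19, Prrx1, Cdh5, Ctnnb1, Grhl2, Esrp1, Esrp2, Cldn3, Cldn4, Ehf, Lum, Dcn and Tg. Likeness is the Pearson r of log2(FPKM + 1) over 9 tumors, given without a test. Tumors that share a number came from different animals, and the correlations of their deviations from the group means ranged from -0.388 to 0.614, so the numbers were not taken as pairs. Alternatives were 2 rescalings, 2 filters, a pseudocount of 0.1, a fit to the compared groups alone, a replicate block, no trend and each tumor left out. Omission of the 2 muscle-rich tumors, and all alternatives for the list genes, were chosen after seeing the data. No mouse genome or sequence table was used here, so no coordinates or sequences are given. The values of 1 epithelial junction gene are not reported here.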

Additional observations from a re-analysis of the deposited data

Results flagged for a closer look

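Snai1 in adapted/B6129SF1 replicate 1 was 60.6 FPKM, far from the other adapted tumors. Its gap to the next of the 6 adapted tumors was 0.714 of their range, above Dixon's 95% critical value for 6 tumors. For normally distributed values, which was not checked here, chance gives such a gap in about 1 group in 20, and 9 genes were examined. The same tumor had the highest value of the 9 tumors for Snai2 (20.5 FPKM), Zeb1 (58 FPKM) and Fn1 (1181 FPKM), with gaps of 0.285, 0.213 and 0.101 of the range of the adapted tumors, none past that critical value.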

How the results depend on the processing

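Of 639 combinations of a gene of the 9, a comparison and an alternative, 599 kept direction and side of the threshold, 7 lost a call, 5 gained one and 28 changed sign, none of the last past the threshold. For the other genes named, 120 of 689 combinations lost a call, 16 gained one and 0 changed sign. Vim stayed negative against original/B6129SF1 in every setting. In adapted/B6129SF1, 0 of the 9 genes passed without the filter on low values and without the 2 muscle-rich tumors, and 0 to 1 passed as each tumor was left out. In adapted/C57BL/6, 1 passed, Vim, with muscle genes removed (adjusted p = 0.037), with the replicate block (0.0409) and without the trend (0.0335). For both adapted groups 0 passed without the filter, and 0 to 2 as each tumor was left out, 0 without original/B6129SF1 replicate 3 and 2 without adapted/B6129SF1 replicate 1. All p-values are from limma. The replicate block changed no other call of the 9 genes, and lowered the genes passing from 850 to 444 in adapted/B6129SF1, from 693 to 388 in adapted/C57BL/6 and from 1221 to 793 in both. The 2 groups alone gave 449 in adapted/B6129SF1, and 800 in adapted/C57BL/6, a rise from 693. Without original/B6129SF1 replicate 3 the counts were 211, 252 and 434.

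Changes of sign were as follows, in log2. In adapted/B6129SF1, Cdh2 was 0.036 after rescaling by median ratios, 0.025 with muscle genes removed and 0.21 without the muscle-rich tumors, where Fn1 was 0.058. In adapted/C57BL/6, Epcam was -0.31 with a pseudocount of 0.1 and -0.36 without these tumors. Between hosts, Twist1 was -0.083 and Epcam -0.25 without them. As each tumor was left out, values in adapted/B6129SF1 ranged from -0.10 to 0.24 for Zeb1, -0.12 to 0.21 for Cdh2, -0.74 to 0.059 for Epcam and -0.62 to 0.058 for Fn1. Epcam ranged from -0.36 to 0.48 in adapted/C57BL/6. Between hosts, the ranges were -0.43 to 0.21 for Snai1, -0.080 to 0.39 for Twist1 and -0.098 to 0.75 for Epcam. In both adapted groups, they were -0.25 to 0.17 for Cdh1, -0.36 to 0.11 for Epcam and -0.16 to 0.18 for Fn1. The cause was not tested. Absolute depth is unknown, and a spread is estimated from 3 tumors per group.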

Other observations

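The values of 3 weakly expressed epithelial genes and of Tg are given here beside those of Epcam. These genes were picked after their values were seen. Cldn3, a tight junction claudin gene, was 0.98 FPKM in original/B6129SF1 replicate 2, 1.16 in adapted/B6129SF1 replicate 2 and 1.46 in adapted/C57BL/6 replicate 1, the highest tumor of each group, and these were also the tumors with the most Epcam in their groups. In adapted/B6129SF1 replicate 1, where Epcam was 0.106 FPKM, Cldn3 was listed at 0. Ehf, an epithelial Ets factor gene, was 0.96 FPKM in adapted/B6129SF1 replicate 2 and 1.03 in adapted/C57BL/6 replicate 1, and at most 0.07 FPKM in each of the other 7 tumors, including original/B6129SF1 replicate 2 with 1.82 FPKM of Epcam. Cldn4, another claudin gene, was highest in adapted/C57BL/6 replicate 2, at 1.56 FPKM, against 0.56 FPKM in replicate 1 of that group, where Epcam was highest. The thyroglobulin gene Tg had the same order of tumors as Epcam within the original/B6129SF1 and the adapted/C57BL/6 group. Its highest values there were 30.2 FPKM in original/B6129SF1 replicate 2 and 31 FPKM in adapted/C57BL/6 replicate 1. Within the adapted/B6129SF1 group the order differed. Tg was 0.04 FPKM in replicate 2, where Epcam was highest, and 1.2 FPKM in replicate 3.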
